A study of Mus musculus with 4 samples.

Results

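The genes described here are those lowest in cells with the GATA-1 mutant 2RA: 49 of the 1124 genes that had a level in all 4 groups and a highest level of 50 or more scaled reads. A gene was taken when its level in GATA-1 2RA was 50% or less of its level in each of the other 3 groups, and its level in GATA-1 WT was more than 50% of that in the G1E control. Of the 58 genes that met these limits, 9 were dropped by name (the globin Hba-a2, the transporters Slc30a10 and Slc38a5, and Add2, Alas2, Car1, Pdk1, Pklr and Trim10). The members were thus chosen by their measured levels, above all the low one in GATA-1 2RA, so these levels are given as a description with no test.

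RNA was sequenced from G1E, a mouse erythroblast line that lacks GATA-1. The 4 groups were cells with the GATA-1 2RA mutant, cells with the GATA-1 V205M mutant, cells with the wild-type protein, called GATA-1 WT, and the G1E control. All 4 groups, the control included, carried the label of a β-estradiol induction, and each was 1 sample of 1 line. V205M is known to weaken the contact of GATA-1 with its cofactor FOG-1, whereas neither the change in 2RA nor the way the GATA-1 forms were delivered is stated in the labels. With 1 sample per group no difference between groups has a replicate check, and intervals below cover counting error only. The unit is the scaled read, the authors' read count of a gene divided by a size factor of its library, and it is not corrected for gene length, so levels are compared between groups and not between genes.

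GATA-1 is a zinc finger transcription factor that binds GATA motifs in DNA and, with cofactors such as FOG-1, switches on genes of the red cell programme while switching off genes of earlier progenitors. Red cell maturation includes the assembly of a specialised membrane skeleton, the making of heme and globin, and a fall in ribosome production as the cell nears its last divisions. G1E cells stop at an early erythroid stage and are used to restore GATA-1 and follow the genes that answer to it.

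Recovered reads over the listed genes came to 1218762 in GATA-1 2RA, 1133160 and 965158 in the 2 count columns behind GATA-1 V205M, 2178397 in GATA-1 WT, and 1015015 and 276064 in the 2 behind the G1E control. Gata1 itself had 1421 scaled reads in GATA-1 2RA, 613 in GATA-1 V205M, 2652 in GATA-1 WT and 153 in the G1E control, so GATA-1 2RA held more of it than GATA-1 V205M and the control and less than GATA-1 WT. Esr1, the estrogen receptor gene, had 43.6, 13.3, 58.6 and 1.83 scaled reads in GATA-1 2RA, GATA-1 V205M, GATA-1 WT and the G1E control. Of 38 red cell membrane genes 22 were in the tables. Lists of other cell types held 13 mast cell, 13 megakaryocyte, 2 endothelial, 2 eosinophil or basophil, 1 neutrophil or macrophage, 1 lymphocyte and 1 stromal gene. The 13 mast cell genes summed to 4040 scaled reads in GATA-1 2RA, 3397 in GATA-1 V205M, 440.2 in GATA-1 WT and 6392 in the G1E control. The 7 megakaryocyte genes with all 4 levels summed to 6796 scaled reads in GATA-1 2RA, 2302 in GATA-1 V205M, 3736 in GATA-1 WT and 1415 in the G1E control. The sum was thus highest in GATA-1 2RA, but Gata2, which is on this list and among the 7, was not. It had 514 in GATA-1 2RA, 1316 in GATA-1 V205M, 54.8 in GATA-1 WT and 773 in the G1E control. Of the 33 genes on that list, 7 were listed higher and 0 lower in GATA-1 2RA than in the G1E control. The shares of all 12931 tested genes were 4.86% higher and 2.61% lower. No mast cell or megakaryocyte gene is among the 49, and their part in the results was not tested. In bulk RNA, fewer cells of a type and less RNA per cell cannot be told apart.

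Across the 49 genes the median level was 13.6 scaled reads in GATA-1 2RA, 98.8 in GATA-1 V205M, 140.5 in GATA-1 WT and 88.9 in the G1E control. The level in GATA-1 2RA was 3.06% to 49.2% of that in the next lowest group, with a median of 33.7%. It was under 10% for 10 genes and from 40 to 50% for 18. All 49 genes stayed below every single count column of the other groups, which the rule favours and which the size factors set at the lowest count. In Cmah, Rab11fip5, Mboat2 and Ndufa4l2 a column of another group also had 1 read. That read scales to 0.857 or more there and to 0.714 in GATA-1 2RA.

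**Figure D1:**
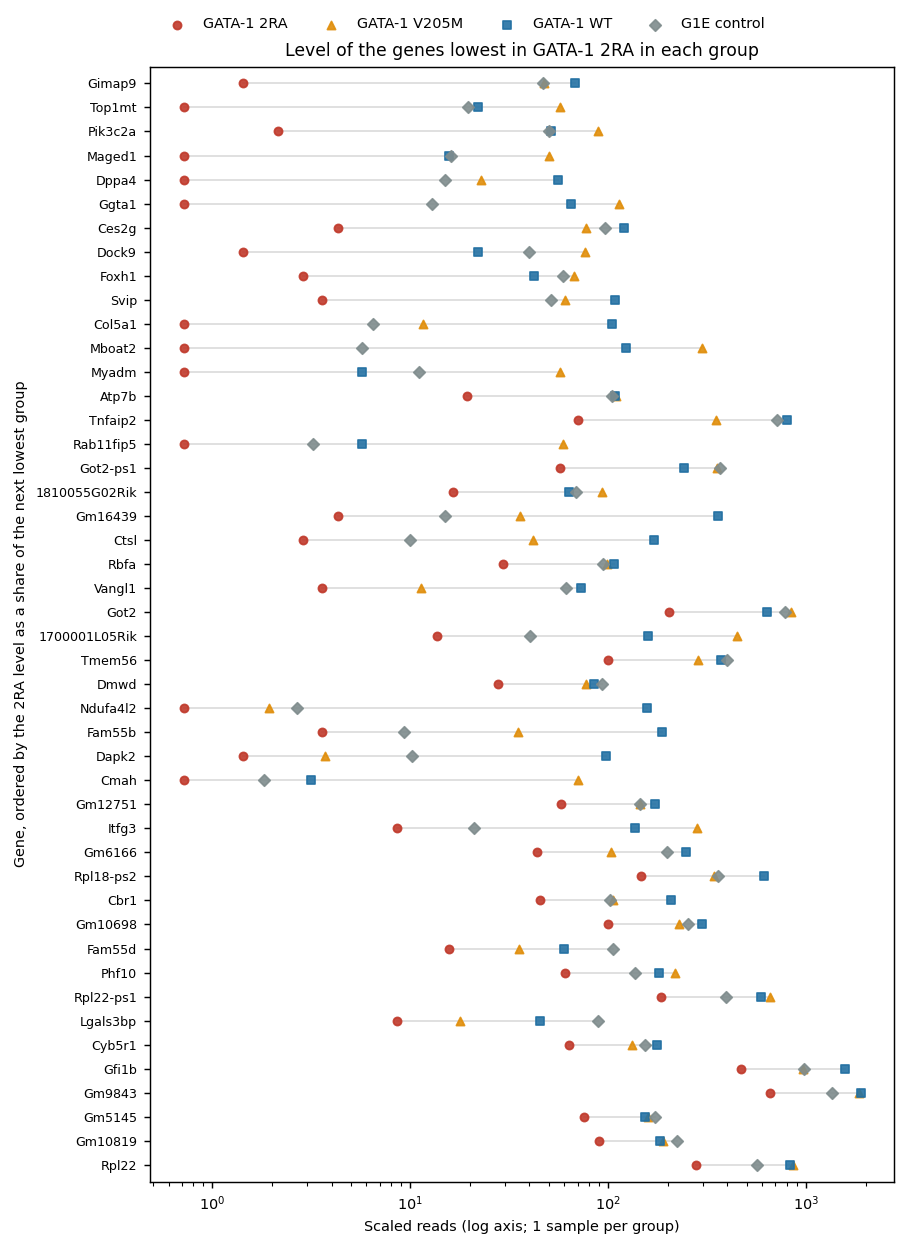
Level of 46 of the 49 genes in scaled reads on a log axis, with 1 sample per group and genes ordered by the GATA-1 2RA level as a share of the next lowest group. Red circles (GATA-1 2RA) lie left of the triangles (GATA-1 V205M), squares (GATA-1 WT) and diamonds (G1E control) for every gene shown, by a margin that shrinks from Gimap9 (3.06%) to Rpl22 (49.2%).

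The authors' tables list a gene in a comparison when its adjusted p is below 0.01 and its change above 2-fold. Against the G1E control, 36 of the 49 were listed lower in GATA-1 2RA, where 2.61% of all 12931 tested genes and 18.5% of the 1124 were. Against GATA-1 WT 46 were listed lower, with 4.04% and 31.7% as the same background shares. Against GATA-1 V205M 42 were listed lower, with background shares of 2.62% and 18.1%. None was listed higher in GATA-1 2RA, which the rule excludes (0 of 49 in each table). The background for higher was 4.86% and 38.2% against the G1E control, 3.33% and 26.4% against GATA-1 WT, and 3.6% and 27.5% against GATA-1 V205M. Since the rule used these contrasts, nothing is read from these counts. By table, 33 genes were listed lower in all 3, 9 in 2 and 7 in 1.

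Of the 49, 3 (6.12%) stood on any of 23 textbook lists, against 170 of the 1124 (15.1%). On the 6 lists of red cell genes stood 2 (4.08%), against 69 of the 1124 (6.14%). Those on a list include Gfi1b, of the GATA-1 partners and erythroid transcription factors, and the collagen gene Col5a1, of the stromal list. Several of the 9 genes dropped by name are erythroid, so the rule itself lowers these shares. Gfi1b encodes a zinc finger repressor needed for red cell and platelet formation (chr2:28609450-28621982, GRCm38, minus strand). It had 470.1 scaled reads in GATA-1 2RA, 966 in GATA-1 V205M, 1568 in GATA-1 WT and 972 in the G1E control. GATA-1 V205M and the control were level as deposited, but GATA-1 V205M was 0.804-fold and 0.839-fold of the control when the levels were rescaled. GATA-1 2RA was 2.05-fold below GATA-1 V205M (95% counting interval 1.88 to 2.25) and 3.33-fold below GATA-1 WT (3.06 to 3.64). The 250 bases before its start are shown because they hold a GATA motif, TGATAA, in capitals (RefSeq, chr2:28621983-28622232, GRCm38.p6, minus strand, 5′ to 3′).
Gfi1b: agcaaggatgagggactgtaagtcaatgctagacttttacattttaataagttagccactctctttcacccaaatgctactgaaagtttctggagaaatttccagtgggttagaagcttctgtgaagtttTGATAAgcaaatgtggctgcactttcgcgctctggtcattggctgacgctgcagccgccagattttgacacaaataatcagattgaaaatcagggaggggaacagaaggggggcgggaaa

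A level lowest in GATA-1 2RA by any margin was found for 4 of 18 red cell membrane genes (22.2%) and 3 of 15 transcription factors (20%), against 168 of the 1124 genes (14.9%). The membrane genes include Kel, Add2 and Stom, of which only Add2 met the limits, and the transcription factors were Klf1, Gfi1b and Tfdp2. Of all 38 membrane genes, 5 were listed lower and 4 higher in GATA-1 2RA than in the G1E control, and 16 lower and 0 higher than in GATA-1 WT. Of all 38 transcription factor genes, 1 was listed lower and 6 higher in GATA-1 2RA than in the G1E control. The shares of all tested genes are those above: 2.61% lower and 4.86% higher against the control, and 4.04% and 3.33% against GATA-1 WT. Klf1 encodes a master activator of globin and membrane genes, and Tfdp2 a partner of the E2F factors.

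A set of genes with differing roles was near the lowest count in GATA-1 2RA and well above it in each other group. Gimap9, a GTPase gene of the immunity-associated family, had 1.43 scaled reads in GATA-1 2RA, 47.4 in GATA-1 V205M, 68.0 in GATA-1 WT and 46.7 in the G1E control. The value in GATA-1 2RA is 2 reads, and it was 32.7-fold below the control (9.20 to 289). Pik3c2a, a class II phosphoinositide kinase gene, had 2.14 scaled reads in GATA-1 2RA, 88.3 in GATA-1 V205M, 51.6 in GATA-1 WT and 50.3 in the G1E control. The gap to the control was 23.4-fold (7.24 to 109), from 3 reads in GATA-1 2RA. In both genes the 3 other groups lay within 2-fold of one another as deposited, and GATA-1 2RA alone was near the lowest count. For Pik3c2a, GATA-1 V205M was 2.3-fold and 2.46-fold of GATA-1 WT when the levels were rescaled.

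Ces2g, a carboxylesterase gene, had 4.29 scaled reads in GATA-1 2RA, 77.2 in GATA-1 V205M, 119.7 in GATA-1 WT and 96.4 in the G1E control. This was 18.0-fold below GATA-1 V205M (8.16 to 50.1). Its 250 upstream bases hold TGATAA and the reverse complement of AGATAA, both in capitals, at 131 and 38 bases before the start (RefSeq, chr8:104961468-104961717, GRCm38.p6, plus strand).
Ces2g: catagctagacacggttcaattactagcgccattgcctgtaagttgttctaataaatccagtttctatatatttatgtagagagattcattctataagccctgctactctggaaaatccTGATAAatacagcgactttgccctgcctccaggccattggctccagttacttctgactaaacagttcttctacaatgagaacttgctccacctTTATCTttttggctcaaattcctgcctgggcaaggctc

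Svip, a small inhibitor of protein removal from the endoplasmic reticulum, had 3.57 scaled reads in GATA-1 2RA, 60.6 in GATA-1 V205M, 108 in GATA-1 WT and 51.1 in the G1E control, and was 14.3-fold below the control (6.27 to 48.2). Foxh1, a forkhead partner of Smad proteins, had 2.86 in GATA-1 2RA, 67.1 in GATA-1 V205M, 42.2 in GATA-1 WT and 59.1 in the G1E control. Dock9, an activator of the GTPase Cdc42, had 1.43 in GATA-1 2RA, 76.0 in GATA-1 V205M, 22.0 in GATA-1 WT and 39.6 in the G1E control. All 3 had between 2 and 5 reads in GATA-1 2RA, so their counting intervals are wide, though all lie clear of 1. Foxh1 and Dock9 no longer met the rule after rescaling.

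In 10 of the 49 genes GATA-1 2RA had a single read, the lowest count in any column of the tables, and 15 had 1 to 3 reads. A count of 0 was found nowhere, and no source used here says whether 1 was added to each count, so a single read may stand for none. The 10 are Top1mt, Maged1, Dppa4, Ggta1, Col5a1, Mboat2, Myadm, Rab11fip5, Ndufa4l2 and Cmah. For 6 of these (Top1mt, Maged1, Dppa4, Ggta1, Mboat2 and Myadm) the counting interval against each other group stayed clear of 1. For Col5a1, Rab11fip5, Ndufa4l2 and Cmah it did not, since at least 1 other group was also near the floor. The same holds for Ctsl, Fam55b and Dapk2, and 41 genes had all 3 intervals under 1.

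Top1mt, the topoisomerase gene of mitochondrial DNA, had 0.714 scaled reads in GATA-1 2RA, 57.2 in GATA-1 V205M, 22.0 in GATA-1 WT and 19.4 in the G1E control, a 27.2-fold gap to the control (3.76 to 942). Maged1, of the MAGE family of ubiquitin ligase partners, had 0.714 in GATA-1 2RA, 50.2 in GATA-1 V205M, 15.7 in GATA-1 WT and 16.0 in the G1E control. Myadm, a membrane protein gene of myeloid cells, had 0.714 in GATA-1 2RA, 57.3 in GATA-1 V205M, 5.67 in GATA-1 WT and 11.1 in the G1E control. These 3 were highest in GATA-1 V205M and lower in GATA-1 WT and the control. Dppa4, a chromatin gene of pluripotent cells, was instead highest in GATA-1 WT, with 0.714 in GATA-1 2RA, 22.7 in GATA-1 V205M, 55.4 in GATA-1 WT and 14.9 in the G1E control.

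Several further genes act in mitochondria, in redox reactions or in copper transport, a grouping made for reading and not a tested one. Got2 encodes the mitochondrial aspartate aminotransferase of the malate-aspartate shuttle (chr8:95864134-95888547, minus strand). It had 202 scaled reads in GATA-1 2RA, 834 in GATA-1 V205M, 632 in GATA-1 WT and 782 in the G1E control. The gap to GATA-1 WT, the next lowest, was 3.12-fold (2.74 to 3.58), while GATA-1 V205M differed from the control by 1.07-fold (0.960 to 1.11). Atp7b, the copper pump gene mutated in human Wilson disease, had 19.3 in GATA-1 2RA, 109 in GATA-1 V205M, 108 in GATA-1 WT and 105 in the G1E control. GATA-1 2RA was 5.42-fold below the control (3.56 to 8.41), and the other 3 groups were within counting error of each other as deposited. When the levels were rescaled, GATA-1 WT was 0.619-fold and 0.604-fold of the control.

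Rbfa, a ribosome assembly factor of mitochondria, had 29.3 scaled reads in GATA-1 2RA, 98.8 in GATA-1 V205M, 107 in GATA-1 WT and 94.3 in the G1E control, and was 3.22-fold below the control (2.25 to 4.65). An opposite-strand gene covers 43.9% of its exon bases, and no source used here says whether reads were counted by strand. Cbr1, a carbonyl reductase gene, had 45.01 in GATA-1 2RA, 105 in GATA-1 V205M, 207 in GATA-1 WT and 102 in the G1E control. Cyb5r1, of the cytochrome b5 reductase family, had 63.6 in GATA-1 2RA, 132 in GATA-1 V205M, 176 in GATA-1 WT and 153 in the G1E control. Ndufa4l2, a relative of a respiratory chain subunit, differed from these: it had 157 in GATA-1 WT, and only 0.714 in GATA-1 2RA, 1.93 in GATA-1 V205M and 2.68 in the G1E control. Its level in GATA-1 2RA cannot be told apart from GATA-1 V205M or the control by counting.

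Ribosomal genes form the next group. Of 32 ribosomal protein symbols in any table, pseudogenes included, 4 had all 4 levels and a highest level of 50 or more, and all 4 were lowest in GATA-1 2RA and met the rule. Among the 1124 genes, GATA-1 2RA was lowest for 14.9%. Against the G1E control, 6 of the 32 were listed lower in GATA-1 2RA and 0 higher, where 2.61% and 4.86% of all tested genes were. The 32 were counted only because some table lists them, so the like base is the 2982 genes in any table. Of those, 337 were listed lower and 628 higher. Rpl22, a protein of the large ribosomal subunit, had 278 scaled reads in GATA-1 2RA, 860.5 in GATA-1 V205M, 832 in GATA-1 WT and 565 in the G1E control. GATA-1 2RA was 2.03-fold below the control (1.84 to 2.34). GATA-1 V205M and GATA-1 WT were 1.52-fold and 1.47-fold above it, but GATA-1 WT was below it (0.885-fold and 0.864-fold) when the levels were rescaled. The pseudogenes Rpl18-ps2 and Rpl22-ps1, both among the 4, are described with the copies. Since Rpl22-ps1 is a copy of Rpl22, the 4 are not separate signals.

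**Figure D2:**
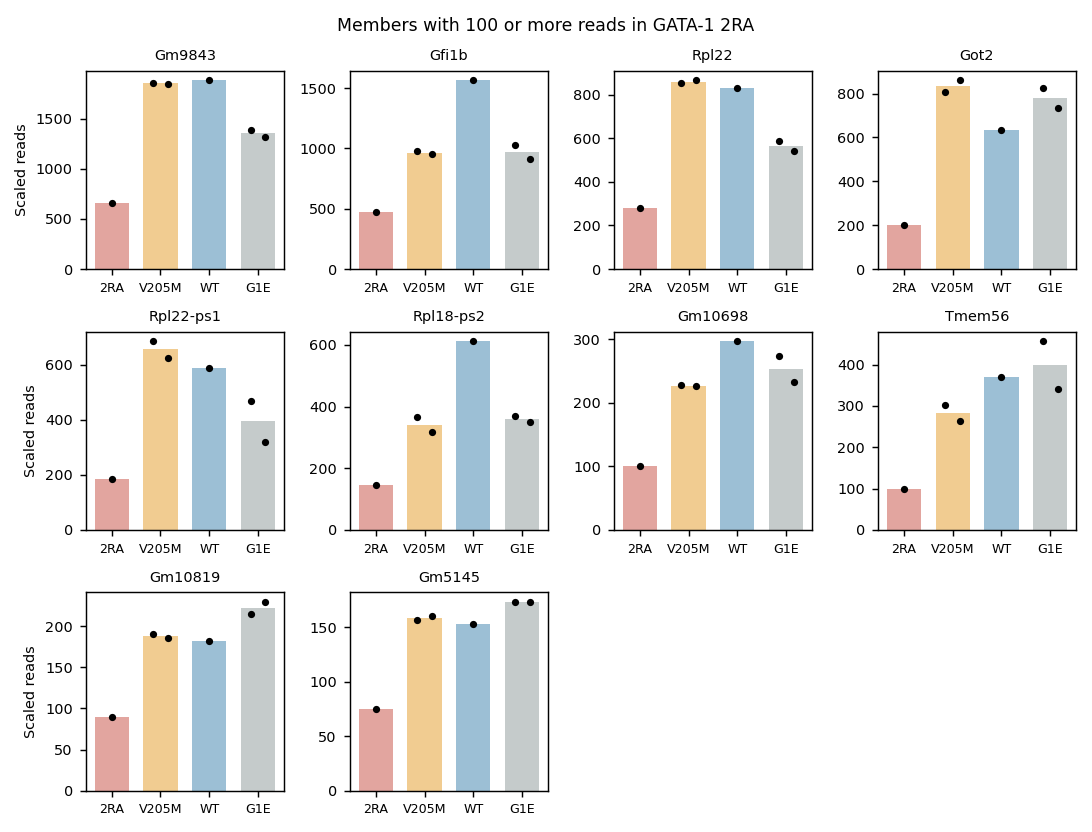
Scaled reads of 10 of the 11 genes with 100 or more reads in GATA-1 2RA; bars are the authors' group levels and dots the 1 or 2 count columns recovered behind each, which are not replicates. Every dot of GATA-1 V205M, GATA-1 WT and the G1E control lies above the GATA-1 2RA bar, and the 2 columns of the control differ most in Rpl22-ps1 and Tmem56.

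Processed pseudogenes, which are copies of spliced messages put back into the genome, made up 10 of the 49 (20.4%), against 72 of the 1124 (6.41%). Protein coding genes made up 38 (77.6%), against 1015 (90.3%), and 1700001L05Rik is a long non-coding gene. Of the 72 pseudogenes, 25 (34.7%) were lowest in GATA-1 2RA by any margin, as were 135 of the 1015 coding genes (13.3%). A read from a nearly identical copy can rarely be told from a read of its parent, so these levels are uncertain, less so where identity is lower. The closest coding gene matched at 100% over the whole copy for Gm9843 (Fau, a ribosomal protein fused to a ubiquitin-like one), Gm10698 (Tmed2, of vesicle transport) and Gm12751 (Polr1d, an RNA polymerase subunit). It matched at 99.3% for Rpl18-ps2 (Rpl18), 99.1% for Gm10819 (Pebp1, a Raf kinase inhibitor), 98.9% for Gm16439 (Bnip3, of mitophagy) and 98.3% for Gm6166 (Fabp5, a fatty acid carrier). For Rpl22-ps1 (Rpl22) and Gm5145 (Snrpa, of the spliceosome) identity was 93.9% and 93.7%. Fau, Tmed2, Polr1d, Rpl18 and Pebp1 were in none of the 6 tables. Fabp5 had 5.7 scaled reads in GATA-1 2RA, 37.8 in GATA-1 WT and 43.3 in the G1E control. Its copy Gm6166 stood at 762.5%, 651.7% and 459.5% of these. Snrpa had 391 in GATA-1 2RA, 787 in GATA-1 V205M and 802 in the G1E control.

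Got2-ps1 on chromosome 5 is 99.15% identical to Got2, with 11 mismatches in 1293 bases. The stretch from base 400 to 489, counted from the Got2 coding start and from the start of the copy, is shown to make plain how little separates them; the 3 mismatches are in capitals (GENCODE M21, GRCm38).
Got2: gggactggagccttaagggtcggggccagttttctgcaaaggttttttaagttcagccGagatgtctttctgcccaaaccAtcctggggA
Got2-ps1: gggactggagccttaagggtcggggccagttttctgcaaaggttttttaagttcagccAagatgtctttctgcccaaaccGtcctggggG

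Got2-ps1 had 57.2 scaled reads in GATA-1 2RA, 355 in GATA-1 V205M, 241 in GATA-1 WT and 367 in the G1E control, a 4.21-fold gap to GATA-1 WT (3.30 to 5.43). Relative to Got2 this was 28.3% in GATA-1 2RA, 42.6% in GATA-1 V205M, 38.1% in GATA-1 WT and 47.0% in the G1E control. Copy and parent were both lowest in GATA-1 2RA and next lowest in GATA-1 WT, but not in proportion. An opposite-strand gene covers 84.5% of the copy.

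Rpl22-ps1 had 184 scaled reads in GATA-1 2RA, 655 in GATA-1 V205M, 589 in GATA-1 WT and 394 in the G1E control, which was 66.3%, 76.1%, 70.8% and 69.8% of Rpl22. Gm16439 had 4.29 in GATA-1 2RA, 35.6 in GATA-1 V205M, 360.3 in GATA-1 WT and 15.02 in the G1E control. Its parent Bnip3 had 30.7 in GATA-1 2RA, 110.5 in GATA-1 V205M, 760 in GATA-1 WT and 35.8 in the G1E control, and missed the rule because GATA-1 2RA and the control were near each other. Rpl18-ps2 had 146 in GATA-1 2RA, 342 in GATA-1 V205M, 613 in GATA-1 WT and 360.3 in the G1E control. Gm9843 had 660.1 in GATA-1 2RA, 1851 in GATA-1 V205M, 1883 in GATA-1 WT and 1354 in the G1E control.

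Of the other 5 copies, Gm10698 had 100.02 scaled reads in GATA-1 2RA, 227 in GATA-1 V205M, 297 in GATA-1 WT and 253 in the G1E control. Gm12751 had 57.9 in GATA-1 2RA, 144 in GATA-1 V205M, 172 in GATA-1 WT and 145 in the G1E control. Gm6166 had 43.6 in GATA-1 2RA, 104 in GATA-1 V205M, 246 in GATA-1 WT and 199 in the G1E control. In all 3 GATA-1 V205M was the next lowest, 2.27 to 2.49 times the level in GATA-1 2RA.

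**Figure D3:**
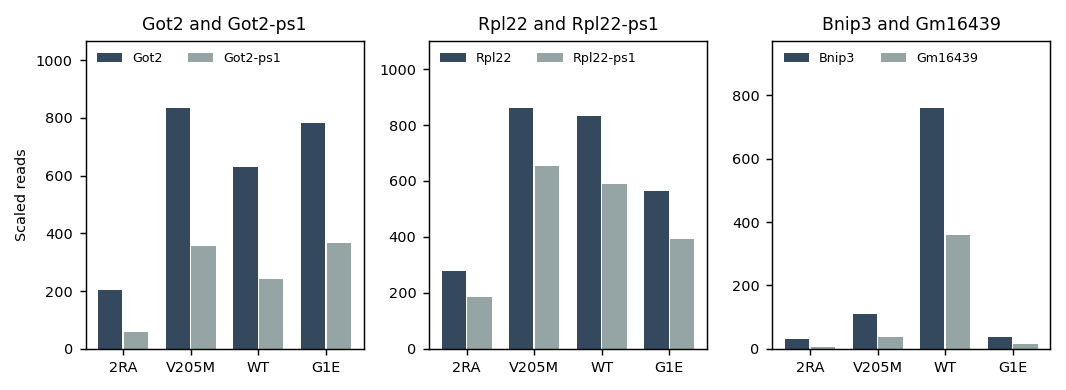
Scaled reads of 3 genes and their processed pseudogene copies in GATA-1 2RA, GATA-1 V205M, GATA-1 WT and the G1E control, 1 sample per group. Gene and copy are lowest in GATA-1 2RA in each pair, while Bnip3 in the control (35.8) is close to its GATA-1 2RA level (30.7).

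The genes that follow have varied roles in signalling, adhesion, lipid and sugar modification and protein breakdown. Tnfaip2, a gene induced by tumour necrosis factor, had 70.7 scaled reads in GATA-1 2RA, 350.4 in GATA-1 V205M, 802 in GATA-1 WT and 716 in the G1E control. It was 11.3-fold lower in GATA-1 2RA than in GATA-1 WT (9.24 to 14.1), and 4.95-fold lower than in GATA-1 V205M (4.0 to 6.15). Both mutants were thus below GATA-1 WT and the control, GATA-1 2RA by the greater margin. Vangl1, a planar polarity gene, had 3.57 in GATA-1 2RA, 11.4 in GATA-1 V205M, 72.4 in GATA-1 WT and 61.4 in the G1E control. Lgals3bp, a secreted binder of galectins, had 8.57 in GATA-1 2RA, 17.9 in GATA-1 V205M, 45.3 in GATA-1 WT and 88.9 in the G1E control.

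Mboat2, a lysophospholipid acyltransferase gene, had 0.714 scaled reads in GATA-1 2RA, 299 in GATA-1 V205M, 123 in GATA-1 WT and 5.68 in the G1E control. The ratio of GATA-1 V205M to GATA-1 2RA was 418 (75.0 to 16597), resting on 1 read in GATA-1 2RA. Ggta1, a galactosyltransferase gene, had 0.714 in GATA-1 2RA, 113 in GATA-1 V205M, 64.9 in GATA-1 WT and 12.9 in the G1E control. Cmah, which makes a sialic acid that humans lack, had 0.714 in GATA-1 2RA, 70.7 in GATA-1 V205M, 3.15 in GATA-1 WT and 1.83 in the G1E control. Ggta1 and Mboat2 were above the control in both GATA-1 V205M and GATA-1 WT, whereas Cmah was high in GATA-1 V205M alone. Rab11fip5, an effector of the recycling GTPase Rab11, had the Cmah pattern with 0.714 in GATA-1 2RA, 59.1 in GATA-1 V205M, 5.67 in GATA-1 WT and 3.23 in the G1E control.

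Itfg3 (current symbol Fam234a) had 8.57 scaled reads in GATA-1 2RA, 280.5 in GATA-1 V205M, 137 in GATA-1 WT and 21.04 in the G1E control. The non-coding 1700001L05Rik followed the same order, with 13.6 in GATA-1 2RA, 446 in GATA-1 V205M, 159 in GATA-1 WT and 40.2 in the G1E control. GATA-1 2RA was 2.45-fold below the control for Itfg3 (1.18 to 5.07) and 2.96-fold below it for 1700001L05Rik (1.98 to 5.87), while the other GATA-1 forms were above it. The 250 upstream bases of Itfg3 are shown for the reverse complement of TGATAA, in capitals (RefSeq, chr17:26244243-26244492, GRCm38.p6, minus strand).
Itfg3: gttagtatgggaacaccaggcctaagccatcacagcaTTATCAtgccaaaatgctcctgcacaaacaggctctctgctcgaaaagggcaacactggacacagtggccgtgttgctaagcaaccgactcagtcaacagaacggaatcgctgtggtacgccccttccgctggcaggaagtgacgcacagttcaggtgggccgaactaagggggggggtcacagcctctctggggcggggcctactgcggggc

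Dapk2, a death-associated kinase gene, had 1.43 scaled reads in GATA-1 2RA, 3.72 in GATA-1 V205M, 97.0 in GATA-1 WT and 10.2 in the G1E control. It was high in GATA-1 WT and below the control in both mutants, and the mutants could not be told apart by counting (ratio of GATA-1 V205M to GATA-1 2RA 2.61, 0.517 to 25.0). Col5a1 had 0.714 in GATA-1 2RA, 11.6 in GATA-1 V205M, 104 in GATA-1 WT and 6.45 in the G1E control. It was the only gene of the 13 on the stromal list found in the tables.

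Ctsl, a lysosomal protease gene, had 2.86 scaled reads in GATA-1 2RA, 41.4 in GATA-1 V205M, 169 in GATA-1 WT and 9.99 in the G1E control. Fam55b (current symbol Nxpe2) had 3.57 in GATA-1 2RA, 34.9 in GATA-1 V205M, 186 in GATA-1 WT and 9.34 in the G1E control. Its neighbour Fam55d (Nxpe4) had 15.7 in GATA-1 2RA, 35.4 in GATA-1 V205M, 59.8 in GATA-1 WT and 105 in the G1E control. The spans of the pair overlap on chromosome 9, and outside GATA-1 2RA their order differed, with Fam55b highest in GATA-1 WT and Fam55d in the control.

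The last coding genes had the other 3 groups close together. Tmem56, a gene of the TLC domain family, had 100.02 scaled reads in GATA-1 2RA, 284 in GATA-1 V205M, 371 in GATA-1 WT and 399 in the G1E control, and was 2.84-fold below GATA-1 V205M (2.37 to 3.45). Phf10, a subunit of a SWI/SNF chromatin remodelling complex, had 60.7 in GATA-1 2RA, 219 in GATA-1 V205M, 181 in GATA-1 WT and 137 in the G1E control. Dmwd, a gene with WD repeats, had 27.9 in GATA-1 2RA, 77.2 in GATA-1 V205M, 85.0 in GATA-1 WT and 92.5 in the G1E control. GATA-1 2RA stood apart in each. The uncharacterised 1810055G02Rik had 16.4 in GATA-1 2RA, 93.3 in GATA-1 V205M, 63.6 in GATA-1 WT and 68.6 in the G1E control, a gap of 3.87-fold to GATA-1 WT (2.44 to 6.38).

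Near the limit of 50%, the 3 genes just inside were Gm5145 (49.0%), Gm10819 (49.1%) and Rpl22 (49.2%). Gm5145 had 75.0 scaled reads in GATA-1 2RA, 158 in GATA-1 V205M, 153 in GATA-1 WT and 173 in the G1E control. Gm10819 had 89.3 in GATA-1 2RA, 188 in GATA-1 V205M, 182 in GATA-1 WT and 222 in the G1E control. The 3 just outside were Gm3452, Cox6b2 (a respiratory chain subunit) and Pgk1 (a glycolytic kinase), at 56.0%, 57.0% and 57.4%. Gm3452 had 1093 in GATA-1 2RA, 2809 in GATA-1 V205M, 4066 in GATA-1 WT and 1954 in the G1E control. Cox6b2 had 12.9 in GATA-1 2RA, 22.5 in GATA-1 V205M, 404 in GATA-1 WT and 48.5 in the G1E control, and Pgk1 had 37.9, 101, 169 and 66.0 in the same groups.

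The comparisons that leave out GATA-1 2RA were less bound by the rule. It fixed that GATA-1 WT was above 50% of the control and that each of the 3 levels was 2-fold or more above GATA-1 2RA. It thus also limited how low GATA-1 V205M and the control could be. The 3 other levels lay within 2-fold of one another in 23 of the 49 genes and over 10-fold apart in 14. The highest level was in GATA-1 V205M for 19 genes, in GATA-1 WT for 23 and in the G1E control for 7.

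Between GATA-1 V205M and the G1E control, 10 of the 49 were listed higher and 4 lower, that is 20.4% and 8.16%. The background was 4.83% and 3.32% of all 12931 tested genes, and 31.5% and 22.5% of the 1124. The share of the 49 was below that of the 1124 in both directions, and no test stands behind this difference. A gene was among the 1124 only if the tables listing it gave all 4 levels. Each of the 1124, the 49 included, was thus listed in at least 1 table with GATA-1 2RA. A gene listed in all 3 of these, as 33 of the 49 were, had its 4 levels from them alone. A gene listed in fewer had to be listed in a comparison without GATA-1 2RA as well. Lower shares of the 49 can thus follow from how the background was built, and nothing is read from them. The median change on the log2 scale of scaled reads plus 1 was 0.18, against 0.22 over the 1124 genes. Between GATA-1 V205M and GATA-1 WT, 7 were listed higher (14.3%) and 11 lower (22.4%), where 3.7% and 5.65% of all tested genes and 23.2% and 38.8% of the 1124 were. The median log2 change was -0.14, against -0.43 over the 1124.

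Between GATA-1 WT and the G1E control, 13 of the 49 were listed higher (26.5%), where 8.17% of all tested genes and 49.5% of the 1124 were. The limit of the 1124 as a background holds here too, so nothing is read from the lower share. None of the 49 was listed lower, which the rule itself requires to the extent that it takes genes above 50% of the control (background 4.86% and 26.5%). The median log2 change was 0.31, over genes already limited on the lower side, against 1.0 over the 1124. All 3 of these medians changed sign when the levels were rescaled, as did those over the 1124 for GATA-1 V205M against the control and, in 1 of 2 rescalings, against GATA-1 WT. For GATA-1 WT against the control, the median over the 1124 genes was 1.0 as deposited and 0.27 and 0.24 when rescaled.

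**Figure D4:**
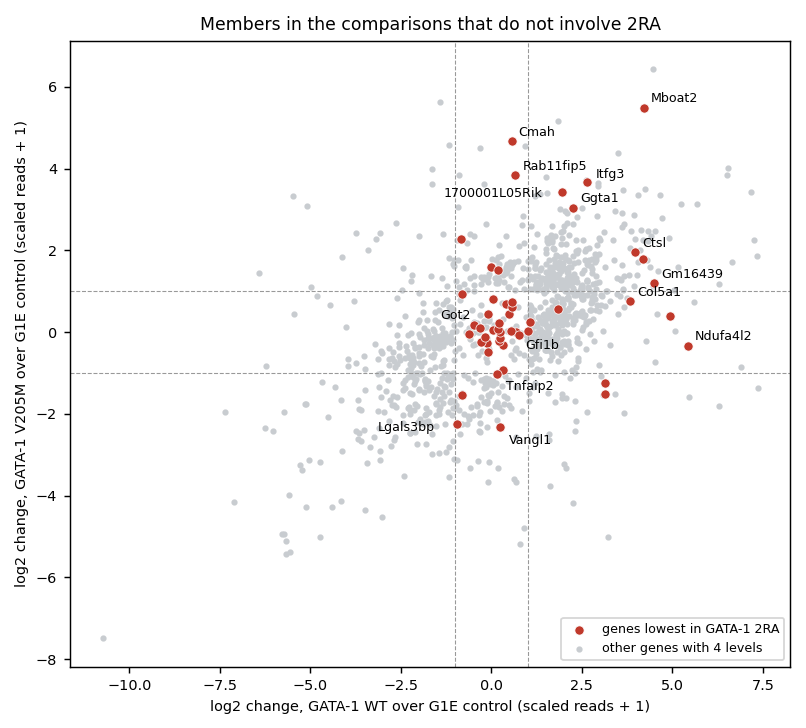
Log2 change of scaled reads plus 1 in GATA-1 V205M over the G1E control (vertical) against GATA-1 WT over the G1E control (horizontal), with the 49 genes in red and the other genes with 4 levels in grey; both axes share the control. Dashed lines mark 2-fold, and 25 of the 49 lie inside them on both axes, while Mboat2 and Cmah lie high and Ndufa4l2 far right.

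Sorted by a 2-fold change against the control, 25 of the 49 were within 2-fold in both GATA-1 V205M and GATA-1 WT, among them Got2, Atp7b, Gimap9, Gfi1b and 9 of the 10 pseudogenes. In 7 genes both were higher (1700001L05Rik, Ctsl, Fam55b, Ggta1, Gm16439, Itfg3 and Mboat2). Another 6 were higher in GATA-1 WT with GATA-1 V205M within 2-fold (Cbr1, Col5a1, Dppa4, Ndufa4l2 and Svip among them), and 5 were higher in GATA-1 V205M with GATA-1 WT within 2-fold (Cmah, Maged1, Myadm, Rab11fip5 and Top1mt). A further 4 were lower in GATA-1 V205M with GATA-1 WT within 2-fold (Fam55d, Lgals3bp, Tnfaip2 and Vangl1). Another 2 were higher in GATA-1 WT and lower in GATA-1 V205M (Dapk2 among them). The comparisons share the control sample, so these classes are not independent of each other. In GATA-1 WT, 30.6% of the 49 and 50.2% of the 1124 were 2-fold or more above the control. In GATA-1 V205M, 24.5% of the 49 and 33.45% of the 1124 were so. There, 12.2% of the 49 and 24.5% of the 1124 were 2-fold or more below the control. These shares were not tested, and they have the same limit of the 1124 as a background.

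By position, the 49 genes lay on 20 chromosomes, and 3 pairs lay within 1000 kb: Fam55d and Fam55b, Col5a1 and Gfi1b (569.9 kb apart on chromosome 2), and Top1mt and Foxh1 (989.4 kb apart on chromosome 15). Of the genes next to a member, 9 had all 4 levels, and the 2 of them lowest in GATA-1 2RA were Fam55b and Fam55d themselves. Exons of 16 members overlap those of another gene, on the opposite strand in 14, and by over 10% of exon bases in 6 (Ctsl, Gm16439, Gm5145, Got2-ps1, Pik3c2a and Rbfa).

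RefSeq promoters were matched for 29 of the 49 genes, and the 250 bases before the start were searched on both strands. The GATA motifs AGATAA and TGATAA differ in their first letter, and a promoter with both counts once where either is counted. Overlaps with CCNCNCCC were not looked for. TGATAA was in 5 of the 29 (17.2%), against 4.35% of the 804 promoters matched among the 1124 and 8.16% of all 27025. AGATAA was in 2 (6.9%), against 9.33% and 10.3%. Either was in 6 (20.7%), against 12.6% and 17%: Cbr1, Ces2g, Cmah, Fam55d, Gfi1b and Itfg3. The motif CCNCNCCC, of the kind bound by KLF factors, was in 21 (72.4%), against 69.4% and 45.6%. These are matches of letters in a handful of promoters, with no test, and say nothing of binding.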

How the data were processed

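Per the labels, RNA of 4 samples, 1 per group, was made into libraries with a TruSeq RNA kit. The submitters' processing notes name deepTools, TopHat, Cuffdiff and Cufflinks, with mm10 as the genome build. No source used here gives their versions or roles, or the tool behind the tables. The 6 deposited tables set each group against each other and hold a signal per gene and group, the read count divided by a size factor as the values themselves show. They also hold the deposited ratio of the levels of both groups (fold), its log2 value, and the authors' p-value with its adjusted value. Genes in the tables have an adjusted p-value below 0.01 (highest 0.009999) and a fold above 2 per the deposited values. A gene missing from a table is known only through the other tables. The ratio of the deposited adjusted to raw p-values gave 12931 tested genes.

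Levels were joined by symbol, and the rule of the opening was applied. The members, the 23 gene lists and the comparisons were chosen with earlier results of these data known. Whole reads were recovered from the steps of the levels for 100.0% of the values. For GATA-1 2RA the low values are too few for a separate check of the step, and every read count and interval of that group rests on it. GATA-1 2RA and GATA-1 WT had 1 count column each (size factors 1.40 and 1.59), and GATA-1 V205M (1.16 and 0.998) and the G1E control (1.17 and 0.357) had 2 each. No source used here says whether these are cultures or runs, so the folds and intervals do not treat them as replicates, although the authors' p-values may do so. The 95% intervals are exact binomial intervals on the pooled reads of each group and cover counting error only. A printed fold is the ratio of the deposited levels, so it need not be centred in its interval. Log2 changes used a pseudocount of 1. Apart from the edgeR alternative described next, no p-value was computed for the comparisons. As an alternative, edgeR 4.0.16 (R 4.3.3; quasi-likelihood test, false discovery rate 0.05) was run on the recovered reads of 1157 genes. It takes its spread from the count columns, as if they were replicates, so it compares libraries, not conditions, and was first tested on simulated data. Genes were named when among the 12 highest members, the 12 widest gaps with 50 or more scaled reads in the next lowest group, on a gene list, or next to the limit, together with Gata1, Esr1, Zfpm1 and Gata2. Other members are named in their functional group, and 3 members are not reported here by name, though all counts and medians include them. Zfpm1 was in none of the tables, and Gata2 had 514 scaled reads in GATA-1 2RA, 1316 in GATA-1 V205M, 54.8 in GATA-1 WT and 773 in the G1E control.

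All 49 members were matched to GENCODE M21 (GRCm38), 46 by the tables' symbol. Pseudogene copies were compared with coding sequences by BLAST 2.17.0. Other steps used Python 3.11.15, pandas 2.3.3, numpy 2.4.6, scipy 1.17.1 and matplotlib 3.10.9. No column of per-sample values was left unused (0 columns).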

Additional observations from a re-analysis of the deposited data

How the results depend on the processing

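The number of genes was 49. It was 24 with a fold limit of 3, 20 with a highest level of 200 or more, and 31 with a pseudocount of 10 before the ratios, and 9 of 12 alternatives kept it within 1.5 times (44 to 64). Both rescalings were computed over the 1157 genes with all 4 levels, which the authors list as changed, and not over all 12931 tested genes. Whether that set suits rescaling was not tested. Rescaling to the same total gave 46 genes, 38 of them among the 49, and the median ratio gave 55, with 39 shared. These lost 11 and 10 genes, in 8 cases each because GATA-1 WT came to 50% of the control or less. Dock9, Dppa4, Fam55d, Foxh1, Got2, Got2-ps1, Lgals3bp, Myadm, Gm5145 and Gm10819 were lost in both. Without the first control column Gfi1b, Gm9843, Rpl22 and Rpl22-ps1 missed a limit, without the second Cbr1, Cmah, Lgals3bp, Myadm and Rab11fip5, and without a GATA-1 V205M column Lgals3bp (first) or Maged1 and Ndufa4l2 (second). Under both rescalings and without each count column, 29 genes met the rule throughout.

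The medians in comparisons without GATA-1 2RA reversed under the same total and the median ratio: -0.121 and -0.0596 for GATA-1 V205M against the control (0.18 as deposited), 0.29 and 0.38 for GATA-1 V205M against GATA-1 WT (-0.14), and -0.42 and -0.45 for GATA-1 WT against the control (0.31). By construction these settings raise the control and lower GATA-1 WT. The other 36 of 42 medians kept their direction. With edgeR on recovered reads, members called lower and higher numbered 8 and 21 for GATA-1 V205M against the control, 23 and 16 for GATA-1 V205M against GATA-1 WT, and 7 and 23 for GATA-1 WT against the control, where the authors list 4 and 10, 11 and 7, and 0 and 13. This test has no 2-fold limit, and of all 1157 genes it calls 34.0% and 44.9%, 50.6% and 34.3%, and 34.8% and 53.9%. The other 12 of 18 counts stayed within 1.5 times. No paired analysis was possible because each group is 1 sample. Depth limits the 15 genes with 1 to 3 reads in GATA-1 2RA, whose ratios are known only within wide intervals.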
